A study of Mus musculus with 24 samples.

Results

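The nucleus accumbens (NAc), a ventral striatal region that takes part in reward and mood, was compared at 2 times of day in mice kept under an unchanged light cycle. Members were the libraries labelled NAc, Ctrl and either Zeitgeber Time 1 (ZT1, 1 h after lights on) or ZT13, 3 of each, so 6 of the 24 libraries of the series. The mice were male C57BL/6J, 8 weeks old at the start, held in 12 h of light and 12 h of dark (12L12D) with 2 weeks of entrainment, and tissue was taken on Day 10. The remaining libraries came from the prefrontal cortex (PFC) and from mice under chronic jet lag (CJL), in which the lights were advanced by 6 h every 2 days. Each library stood for 1 mouse, and no mutation, transgene or drug was involved.

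Gene expression was given as FPKM, a level scaled for transcript length and for the total of mapped fragments, for 48526 Ensembl genes. Only genes that reached 1 FPKM in 3 or more of the 6 libraries were kept, which left 14894. At this threshold 412 genes passed with exactly 3 libraries and 442 stayed out with exactly 2. The 6 libraries held 14661 to 14819 genes at 1 FPKM or more, and mitochondrially encoded transcripts took 15.3% to 19.5% of the summed FPKM. Differences are ZT13 minus ZT1 on the log2(FPKM + 0.1) scale, each with its standard error (SE) from limma, fitted on all 12 NAc libraries so that the CJL libraries share in the estimate of the spread. The median SD within a group was 0.141 at ZT1 and 0.189 at ZT13 on that scale. Depth per gene is unknown from FPKM, so the spread between mice is the measure of precision.

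Circadian clocks run on a feedback loop. CLOCK or NPAS2 together with BMAL1, the product of Arntl, switches on the Per, Cry, Rev-erb (Nr1d1, Nr1d2), Dec (Bhlhe40, Bhlhe41) and Ciart genes through E-box sequences, and those products then repress the activators or their gene. In nocturnal rodents circulating corticosterone also peaks around lights off, and it acts through the glucocorticoid receptor, a DNA-binding transcription factor.

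Promoter sequences are shown for 6 genes because the lists described here, the clock repressors, the glucocorticoid-responsive genes and the endoplasmic reticulum chaperones, are each known for 1 such motif. They run from 250 bases before to 50 after a RefSeq transcript start (GRCm38.p6), 5′ to 3′ on the gene's own strand. Capitals mark CACGTG (E-box) in Per1 and Ciart, the glucocorticoid element (AGAACA, any 3 bases, TGTTCT) in Sgk1, and the endoplasmic reticulum stress element (CCAAT, any 9 bases, CCACG, on either strand) in Hspa5, Hsp90b1 and Calr, with the free bases in capitals too.
Per1, chr11:69098699-69098998, + strand: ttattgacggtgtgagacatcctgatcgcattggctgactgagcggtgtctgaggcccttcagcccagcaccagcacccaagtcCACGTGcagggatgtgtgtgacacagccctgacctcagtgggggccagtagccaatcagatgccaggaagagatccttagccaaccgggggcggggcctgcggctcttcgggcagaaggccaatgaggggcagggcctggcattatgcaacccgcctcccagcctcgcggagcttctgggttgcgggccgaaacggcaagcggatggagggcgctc
Ciart, chr3:95882179-95882478, - strand: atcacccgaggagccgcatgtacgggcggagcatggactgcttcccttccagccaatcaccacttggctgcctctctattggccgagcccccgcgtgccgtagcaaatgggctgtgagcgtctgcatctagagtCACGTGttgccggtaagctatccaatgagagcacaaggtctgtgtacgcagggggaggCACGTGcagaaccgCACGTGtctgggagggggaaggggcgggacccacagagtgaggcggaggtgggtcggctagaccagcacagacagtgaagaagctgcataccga
Sgk1, chr10:21993640-21993939, + strand: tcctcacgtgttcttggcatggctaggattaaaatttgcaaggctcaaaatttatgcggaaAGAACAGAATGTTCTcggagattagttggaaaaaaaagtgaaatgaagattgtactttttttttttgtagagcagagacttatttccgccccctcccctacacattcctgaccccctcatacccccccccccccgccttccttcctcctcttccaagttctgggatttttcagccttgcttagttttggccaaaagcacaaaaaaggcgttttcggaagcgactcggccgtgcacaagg
Hspa5, chr2:34771840-34772139, + strand: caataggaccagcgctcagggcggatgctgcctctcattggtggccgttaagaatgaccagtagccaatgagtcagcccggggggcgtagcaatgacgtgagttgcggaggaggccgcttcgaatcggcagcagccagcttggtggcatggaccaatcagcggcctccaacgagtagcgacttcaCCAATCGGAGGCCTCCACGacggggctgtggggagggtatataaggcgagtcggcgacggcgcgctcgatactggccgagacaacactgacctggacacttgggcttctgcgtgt
Hsp90b1, chr10:86705395-86705694, - strand: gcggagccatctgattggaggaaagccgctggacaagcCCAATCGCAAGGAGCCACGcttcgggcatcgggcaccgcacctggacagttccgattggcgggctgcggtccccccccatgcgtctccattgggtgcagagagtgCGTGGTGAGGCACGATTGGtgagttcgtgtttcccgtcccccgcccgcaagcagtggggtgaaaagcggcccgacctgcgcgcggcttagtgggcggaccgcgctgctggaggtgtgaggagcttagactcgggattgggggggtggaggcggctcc
Calr, chr8:84846882-84847181, - strand: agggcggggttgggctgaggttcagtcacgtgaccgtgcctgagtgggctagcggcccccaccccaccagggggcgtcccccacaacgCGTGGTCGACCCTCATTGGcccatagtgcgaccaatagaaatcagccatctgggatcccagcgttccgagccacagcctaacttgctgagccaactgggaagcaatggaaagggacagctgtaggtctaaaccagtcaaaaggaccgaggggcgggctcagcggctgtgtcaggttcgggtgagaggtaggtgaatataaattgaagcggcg

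Of the 10296 tested genes matched to such a promoter, 11.7% held CACGTG, 1 held the glucocorticoid element and 17 (0.165%) held the endoplasmic reticulum stress element, searched on both strands. Among the 8 clock repressors matched, 4 held an E-box (Per1, Cry1, Ciart and Bhlhe41), and Ciart held 3 copies, the farthest 116 bases before its start. The gene with the glucocorticoid element was Sgk1, 1 of the 18 glucocorticoid-responsive genes matched, which held an E-box as well. Of 18 endoplasmic reticulum chaperone genes matched, 8 (44.4%) held the stress element. No match overlapped a match of another motif in these lists, and a match is a string of letters, not a shown binding site.

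No gene passed an adjusted p of 0.05 in limma (0 of 14894, 0%), where the smallest adjusted p was 0.0598. At an unadjusted P under 0.05, 784 genes (5.26%) were higher at ZT13 and 736 (4.94%) were lower, 10.2% in all. The ZT13 libraries lay wholly above the ZT1 libraries for 1309 genes (8.79%) and wholly below for 1118 (7.51%). The median difference over all genes was -0.01. Single genes of this comparison are therefore given by their values and unadjusted P, and none is a call. The number called depended on the fit. It was 170 (134 higher and 36 lower) when all 24 libraries shared 1 spread, 11 with a pseudocount of 1, 10 after quantile normalization, 9 without NAc ZT13 CJL replicate 3, 3 without NAc ZT13 Ctrl replicate 2 and 1 without NAc ZT1 Ctrl replicate 2. The counts at an unadjusted P under 0.05 moved to 1128 higher and 1411 lower without NAc ZT13 Ctrl replicate 1, and to 471 and 526 without NAc ZT1 Ctrl replicate 1. Without NAc ZT13 Ctrl replicate 3 they were 536 and 531.

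The tissue carried the markers of medium spiny neurons, the main cell type of the striatum. The summed FPKM of 14 such markers was 1362 to 1581 at ZT1 and 1339 to 1512 at ZT13, against 178 to 350.8 in PFC of Ctrl mice, and none of the 14 reached an unadjusted P under 0.05. In NAc of CJL mice that sum was 637.1 to 1554 at ZT1 and 855.2 to 1806 at ZT13. NAc ZT1 CJL replicates 2 and 3 and NAc ZT13 CJL replicate 3 stood apart there, with 900.5, 637.1 and 855.2, and with 629.2, 564.2 and 659.3 summed FPKM of 15 thalamus and hypothalamus markers, against 53.97 to 263.8 in NAc of Ctrl mice. These libraries enter the estimate of the spread, the CJL comparisons and the region levels, which are therefore given also without the 3. Markers of cortical excitatory neurons differed between the groups compared. The summed FPKM of 10 of them was 60.8 to 115.3 at ZT1 and 193.4 to 247.3 at ZT13, with 592.8 to 711.7 in PFC of Ctrl mice, and 7 of 10 were higher at ZT13 at an unadjusted P under 0.05 (0 lower). Slc17a7, the vesicular glutamate transporter of cortical neurons, had 24.1, 32.9 and 57.9 FPKM at ZT1 and 154, 140 and 107 at ZT13. No marker of that list was at 0 in any library. In bulk tissue a change in the number of cells of a type and a change in RNA per cell cannot be told apart. In NAc of CJL mice the same sum was 59.3 to 209 at ZT1 and 80.6 to 208.7 at ZT13, and the groups overlapped.

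Single libraries of the comparison also stood apart. NAc ZT13 Ctrl replicate 3 had 1153 FPKM of Ttr, the transthyretin gene of the choroid plexus, against 0.296 to 5.82 in the other 5 libraries. Its summed FPKM over 14 choroid plexus markers was 1226, against 13.95 to 18.52 in the other 5. NAc ZT13 Ctrl replicates 2 and 3 both held transcripts of hypothalamic peptides. Pmch, which encodes melanin-concentrating hormone, was at 16.2 and 19.4 FPKM in them and at 0.179 to 0.709 in the other 4 libraries, and Hcrt (orexin) was at 6.07 and 4.04 against 0 to 0.226. Their summed thalamus and hypothalamus markers were 185.8 and 263.8 FPKM, against 53.97 in NAc ZT13 Ctrl replicate 1 and 73.19 to 139.5 at ZT1. Leaving out both left 1 ZT13 library, taken to vary like the other groups, and 30 genes were then called, while by unadjusted P 651 were higher and 1336 lower. In that fit 7 of 10 clock repressors and 10 of 19 glucocorticoid-responsive genes were higher (medians 0.55 and 0.55), and 10 of 20 endoplasmic reticulum chaperones were lower (median -0.30). Without the 3 CJL libraries named above these counts were 9, 14 and 9, with 838 genes higher, 747 lower and 0 called. Counts of the main lists are given below also without replicate 3. The mean log2 level of the cortical markers was added as a covariate after the data were seen, which left 356 higher genes and 365 lower genes at that P and 0 called. That level did not overlap between the groups compared. It was -1.12 to -0.07 at ZT1 and 0.57 to 0.78 at ZT13, so the fit cannot fully separate it from time of day. The part of cortical tissue in the results was not tested beyond that fit.

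**Figure D1:**
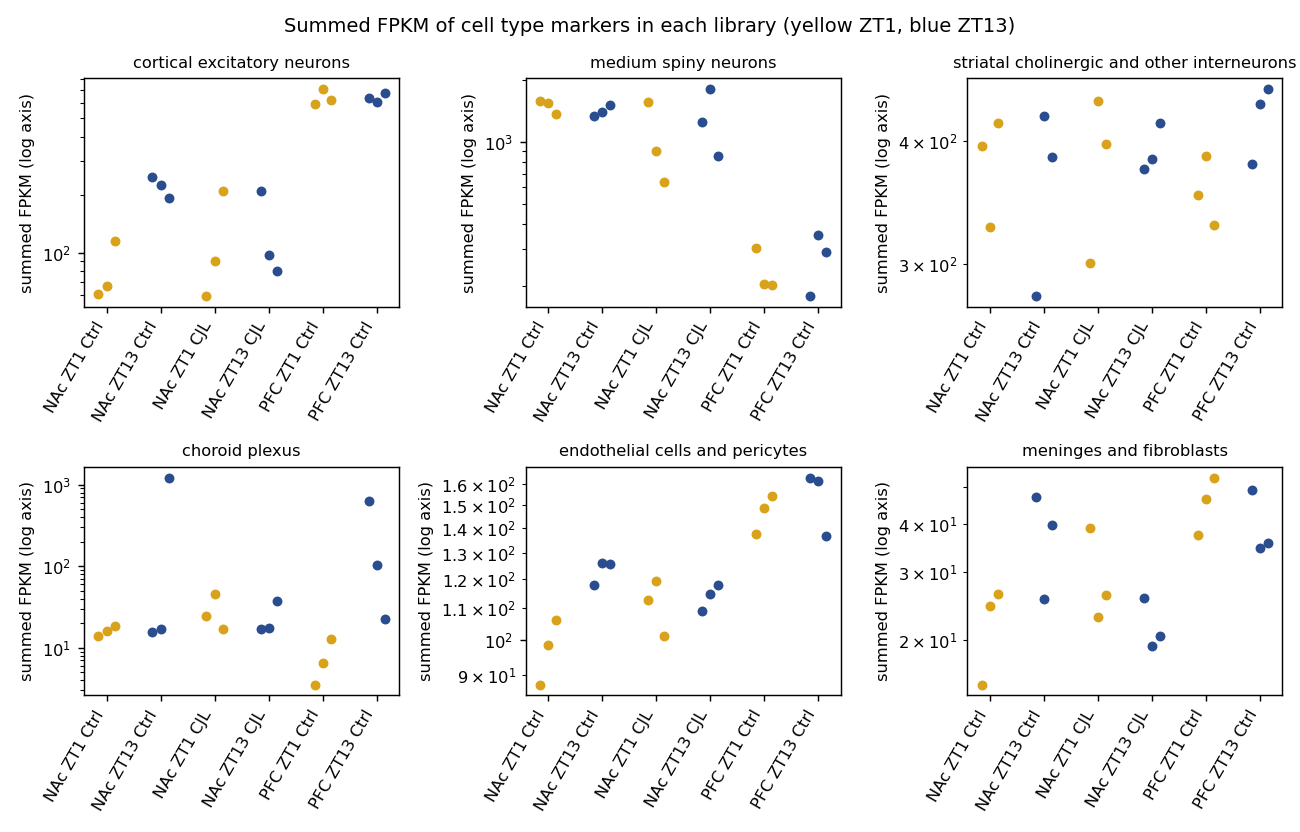
Summed FPKM (log axis) of the markers of 6 cell types, 1 point per library, 3 libraries per group, ZT1 in yellow and ZT13 in blue. The NAc ZT13 Ctrl libraries lie above the NAc ZT1 Ctrl libraries for the cortical excitatory markers (193.4 to 247.3 against 60.8 to 115.3), and 1 NAc ZT13 Ctrl library reaches 1226 for the choroid plexus.

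All 10 clock repressors tested were higher at ZT13 at an unadjusted P under 0.05, and in all 10 the ZT13 libraries lay above the ZT1 libraries. Their median difference was 0.53, with a range from 0.24 (Cry2) to 0.91 (Per2). Per2, a core repressor that dimerises with the CRY proteins (ENSMUSG00000055866, chr1:91415982-91459324, mm10), had 6.62, 7.67 and 6.07 FPKM at ZT1 and 11.8, 13.2 and 13.4 at ZT13. The groups were far apart relative to their spread, and the difference was 0.91 (SE 0.13, adjusted p = 0.0598). Per1, its paralogue, had 13.8, 15.9 and 14.2 FPKM at ZT1 and 21.5, 23.7 and 25.1 at ZT13, a difference of 0.67. Per3 had 9.60, 11.4 and 9.49 FPKM at ZT1 and 16.03, 14.4 and 13.5 at ZT13.

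Nr1d1 encodes REV-ERBα, the nuclear receptor that represses Arntl. It had 23.2, 25.3 and 22.1 FPKM at ZT1 and 34.2, 34.8 and 33.7 at ZT13, with no overlap, and the difference was 0.54 (SE 0.10). The difference of its paralogue Nr1d2 was 0.25, with 28.5, 28.8 and 27.1 FPKM at ZT1 and 40.2, 30.5 and 30.5 at ZT13, where 1 of the 3 ZT13 libraries stood above the others. Ciart, whose product CHRONO represses CLOCK and BMAL1, had 6.62, 6.45 and 6.20 FPKM at ZT1 and 12.5, 9.72 and 8.61 at ZT13. Bhlhe40 (DEC1) differed by 0.64, Bhlhe41 (DEC2) by 0.43, and the cryptochromes Cry1 and Cry2 by 0.34 and 0.24.

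On the activating side 1 of 7 genes reached an unadjusted P under 0.05. Arntl, which encodes BMAL1, was lower at ZT13, with 13.1, 12.9 and 13.7 FPKM at ZT1 and 11.3, 8.02 and 9.75 at ZT13, a difference of -0.46 (SE 0.13). Its partners Clock and Npas2 differed by 0.12 (SE 0.21) and -0.12 (SE 0.24), and their groups overlapped, as did those of Arntl2, Rora and Rorb. Of the 4 output factors, PAR-domain transcription factors and their repressor Nfil3, 2 were higher at an unadjusted P under 0.05. Dbp had 42.7, 36.5 and 35.9 FPKM at ZT1 and 51.2, 72.2 and 69.2 at ZT13, and Tef differed by 0.60 (SE 0.20). Hlf and Nfil3 differed by 0.04 (SE 0.27) and 0.06 (SE 0.16). None of the 7 kinase and ubiquitin ligase genes, which set the stability of the PER and CRY proteins, reached an unadjusted P under 0.05.

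Over all 28 clock genes 12 were higher and 1 was lower, against 5.26% and 4.94% of all genes. Without NAc ZT13 Ctrl replicate 3, 9 of the 10 repressors kept an unadjusted P under 0.05. With the cortical covariate 8 did, with a median of 0.53. Over all 14894 genes 536 and 356 were higher in those fits. With all 24 libraries in the fit 6 of the 10 were called at an adjusted p under 0.05, where 0.9% of all genes were called higher and 0.242% lower (1.14% in all), and, by unadjusted P, 7.49% were higher with 6.35% lower (13.8%). Under CJL, in other mice, 6 of the 10 repressors were higher at ZT13 by that measure in NAc, with a median of 0.32 (2.8% of all genes were higher). It was 4 of 10 without the 3 CJL libraries named above, with a median of 0.27 (2.16% of all genes). With all CJL libraries the Per2 difference was 0.84 and the Nr1d1 difference was -0.04. Without the 3 CJL libraries they were 0.88 and 0.13. The CJL minus Ctrl contrast for Nr1d1 was -0.58 (unadjusted P = 0.0013), and it did not pass the adjusted threshold. It was -0.41 (unadjusted P = 0.0289) without the 3 CJL libraries.

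**Figure D2:**
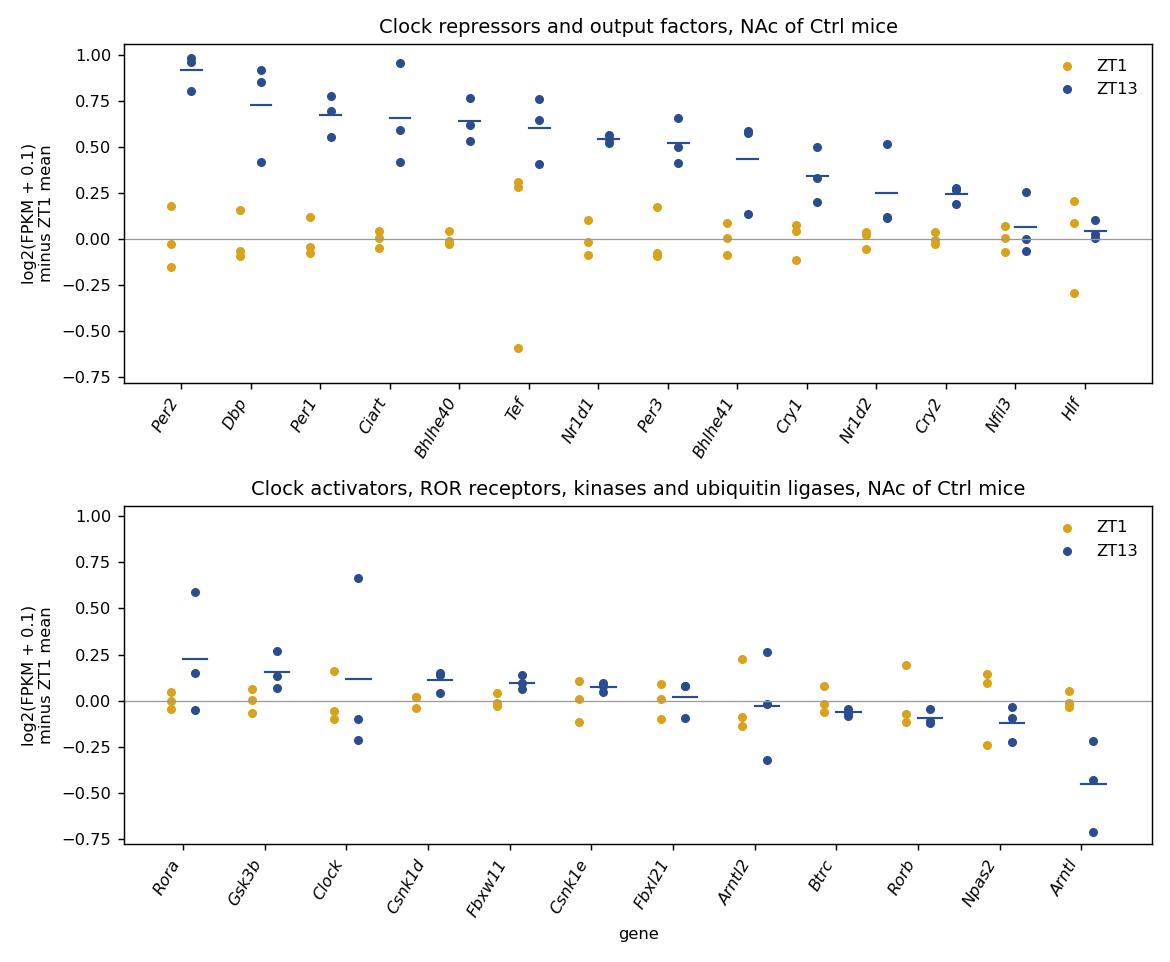
Log2(FPKM + 0.1) of 26 of the 28 clock genes in the 6 NAc libraries of Ctrl mice, minus the mean of the 3 ZT1 libraries of that gene. Points are libraries (ZT1 yellow, ZT13 blue) and short bars are ZT13 means; Per2 is highest at 0.91 and Arntl lowest at -0.46.

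Genes known to respond to glucocorticoids had the largest median among the 29 lists other than cell type markers. Of 19 tested (Lcn2 did not pass the filter), 14 were higher at ZT13 at an unadjusted P under 0.05 and 0 were lower, against 5.26% and 4.94% of all genes, and the median difference was 0.63. Plin4 and Map3k6 passed the filter only through the ZT13 libraries and so had to differ. Without them 12 of 17 were higher, with a median of 0.59. The counts of this list in the other fits, above and below, include both genes. Per1 belongs to this list and to the clock list. Fkbp5, a co-chaperone that restrains the glucocorticoid receptor (ENSMUSG00000024222, chr17:28399095-28517524, mm10), had 7.31, 7.57 and 7.92 FPKM at ZT1 and 12.4, 12.6 and 13.9 at ZT13. That is a difference of 0.76 (SE 0.11, adjusted p = 0.0598), with no overlap.

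Sgk1, a kinase that regulates ion channels and transporters and whose promoter held the glucocorticoid element, had 18.7, 16.9 and 18.5 FPKM at ZT1 and 37.3, 41.2 and 30.7 at ZT13. The ratio of its means was 2.02. Plin4, a lipid droplet coat protein gene, was low at ZT1 with 0.397, 0.426 and 0.411 FPKM, and had 2.07, 1.86 and 2.14 at ZT13, a difference of 2.05 (SE 0.34). Hif3a, a hypoxia-inducible factor subunit, had 0.643, 0.731 and 1.31 FPKM at ZT1 and 3.25, 3.75 and 3.09 at ZT13. Nfkbia, the inhibitor of NF-kappa-B, had 6.15, 7.24 and 7.34 FPKM at ZT1 and 10.4, 13.1 and 11.01 at ZT13. In these genes every ZT13 library was above every ZT1 library.

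Zbtb16 (PLZF, a zinc finger repressor) had 1.17, 1.08 and 1.14 FPKM at ZT1 and 3.43, 5.48 and 5.59 at ZT13. Its level in PFC of Ctrl mice was 7.38 to 8.20 at ZT1 and 9.19 to 9.83 at ZT13, above every NAc library. With the cortical covariate its difference went from 1.97 to 1.73 (unadjusted P = 0.0029). Klf9, a Kruppel-like factor gene named after its values were seen, had 34.9, 34.4 and 38.05 FPKM at ZT1 and 54.4, 50.15 and 56.9 at ZT13. Its difference was 0.59 in NAc and -0.07 in PFC of Ctrl mice (test of the difference between the regions, adjusted p = 0.042). Map3k6, Arrdc2, Tob2, Ddit4, Tsc22d3 and Errfi1 were also higher, with differences from 0.41 (Errfi1) to 1.21 (Map3k6). The members not at an unadjusted P under 0.05 were Sult1a1, Mt1, Mt2, Cdkn1a and Pdk4, with differences from -0.12 (Pdk4) to 0.31 (Sult1a1).

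Without NAc ZT13 Ctrl replicate 3 the count was 13 of 19, and with the cortical covariate it was 12, with a median of 0.63. Over all 14894 genes 536 and 356 were higher in those fits. With all 24 libraries in the fit 13 of 19 were called at an adjusted p under 0.05. Plin4 and Map3k6, which had to differ, were among the 13. In that fit 1.14% of all genes were called and 0.9% were called higher. In NAc of CJL mice the median of the list was 0.25, and 9 of 19 were higher at an unadjusted P under 0.05, against 2.8% of all genes. Without the 3 CJL libraries low in medium spiny neuron markers the median was 0.09 and 2 of 19 were higher (2.16% of all genes). With all CJL libraries the difference for Sgk1 was 1.00 in Ctrl and 0.02 in CJL, and that for Fkbp5 was 0.76 and 0.24. Without the 3 CJL libraries the CJL differences of Sgk1 and Fkbp5 were 0.05 and 0.09. Their CJL minus Ctrl contrasts were -0.98 and -0.52 (unadjusted P = 0.0012 and 0.0048), neither of which passed the adjusted threshold, and without the 3 CJL libraries they were -0.95 and -0.67. In PFC of Ctrl mice the median was 0.73.

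Chaperones and folding enzymes of the endoplasmic reticulum, where secreted and membrane proteins mature, formed the third list described here. Of 20 tested, 10 were lower at an unadjusted P under 0.05 and 0 were higher, against 4.94% and 5.26% of all genes, with a median of -0.21, and none was called. Calr, the calcium-binding lectin chaperone, had 165.7, 168.2 and 167.7 FPKM at ZT1 and 115.8, 126.8 and 133.9 at ZT13. Pdia3, the disulfide isomerase that works with calreticulin, had 83.8, 86.4 and 86.2 FPKM at ZT1 and 66.7, 66.9 and 61.1 at ZT13. Both genes had narrow ZT1 groups and differed by -0.42 (SE 0.08) and -0.40 (SE 0.07). Hsp90b1 (GRP94) had 129.4, 117.8 and 108.2 FPKM at ZT1 and 99.8, 73.1 and 65.8 at ZT13.

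Hspa5 (BiP), the main chaperone of the compartment, was named after its values were seen. It had 97.0, 104.1 and 112.7 FPKM at ZT1 and 40.0, 70.2 and 82.5 at ZT13, so that the ZT13 group was wide, and the difference was -0.76 (SE 0.20). Xbp1, which encodes a transcription factor of the unfolded protein response, differed by -0.33 (SE 0.07). Among the 8 chaperone genes whose promoter held the stress element, Hspa5, Hsp90b1, Calr, Pdia6, Canx and Dnajc3 were lower at an unadjusted P under 0.05, while Creld2 and Syvn1 differed by -0.19 (SE 0.12) and 0.03 (SE 0.12). The count of the list was 11 of 20 without NAc ZT13 Ctrl replicate 3 and 8 with the cortical covariate. Over all 14894 genes 531 and 365 were lower in those fits. In NAc of CJL mice the median was -0.02, with 3 lower and 1 higher (2.47% and 2.8% of all genes, 5.27% in all). Without the 3 CJL libraries it was 0.015, with 0 of either, and in PFC of Ctrl mice it was -0.16.

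**Figure D3:**
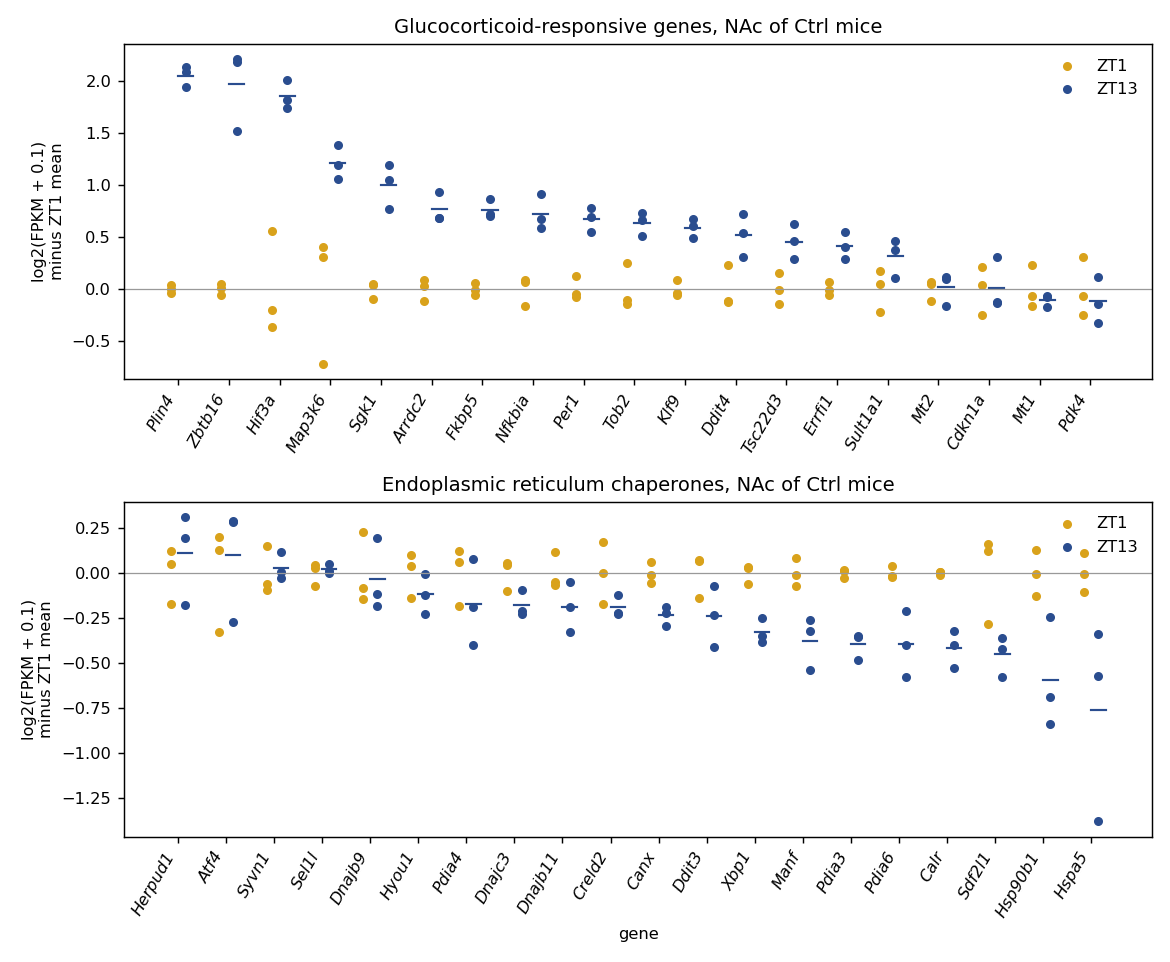
Log2(FPKM + 0.1) of 19 glucocorticoid-responsive genes and 20 endoplasmic reticulum chaperone genes in the 6 NAc libraries of Ctrl mice, minus the ZT1 mean of each gene. Points are libraries (ZT1 yellow, ZT13 blue) and short bars are ZT13 means, which reach 2.05 for Plin4 (at 1 FPKM or more only at ZT13) and -0.76 for Hspa5; the vertical scales differ between the panels.

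Across all genes tested, the 15 genes per direction with the smallest P among those with no overlap and a mean of at least 2 FPKM were taken after the values were seen, because no gene met the adjusted threshold of the naming rule. Slc38a2, a sodium-coupled amino acid transporter (ENSMUSG00000022462, chr15:96687394-96699698, mm10), had 24.5, 24.97 and 26.99 FPKM at ZT1 and 36.9, 35.3 and 39.5 at ZT13. Its difference was 0.55 (SE 0.07, adjusted p = 0.0598) in Ctrl and -0.03 in CJL. Slc2a1 (GLUT1), the glucose transporter of the blood-brain barrier, had 16.2, 21.1 and 20.6 FPKM at ZT1 and 32.9, 37.7 and 36.5 at ZT13, against a difference of 0.07 in CJL. Rbm3, an RNA-binding protein induced by mild cold, had 34.7, 38.3 and 43.2 FPKM at ZT1 and 59.18, 67.98 and 54.04 at ZT13. Its difference was 0.64 in Ctrl and 0.58 in CJL, while that of Cirbp, the other cold-inducible gene, was -0.18 (SE 0.11) in Ctrl. The CJL differences of Slc38a2, Slc2a1 and Rbm3 were -0.01, 0.27 and 0.72 without the 3 CJL libraries.

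Ctgf, a matricellular growth factor gene, had 1.33, 2.65 and 2.17 FPKM at ZT1 and 6.35, 5.97 and 9.07 at ZT13, a ratio of means of 3.48. It was at 8.50 to 14.9 FPKM in PFC of Ctrl mice. Rap1gap2, a GTPase-activating protein gene, had 5.52, 6.69 and 7.09 FPKM at ZT1 and 17.3, 11.7 and 11.3 at ZT13. Zbtb7a, Adcy9 (an adenylyl cyclase) and Per1 were in the same set, with differences of 0.82, 0.54 and 0.67.

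Among the genes lower at ZT13, Cyp2j9, a cytochrome P450 gene (ENSMUSG00000015224, chr4:96568429-96591578, mm10), had 20.7, 19.6 and 19.4 FPKM at ZT1 and 10.5, 14.1 and 11.2 at ZT13. Its difference was -0.74 (SE 0.10, adjusted p = 0.0598), and -0.10 in CJL (-0.14 without the 3 CJL libraries). Peg10, a paternally expressed gene derived from a retroelement, had 46.7, 51.1 and 41.8 FPKM at ZT1 and 24.5, 27.3 and 25.4 at ZT13. Sepp1, which encodes selenoprotein P, the selenium carrier, had 260.8, 266.6 and 251.8 FPKM at ZT1 and 135.6, 204.6 and 146.5 at ZT13. Gas5, a noncoding RNA that hosts small nucleolar RNAs, differed by -0.38 (SE 0.08). The remaining genes of the set (Lyrm5, Myl6b, Slc22a4, Ric3, Slc10a4, Ebf4, Hsdl2 and Cacna2d2) had differences from -0.93 (Slc10a4) to -0.44 (Hsdl2).

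Neuronal signalling genes gave fewer or less stable counts. Of 20 dopamine receptor and signalling genes none reached an unadjusted P under 0.05, and the median was -0.06. Of 18 opioid and neuropeptide genes, 3 were lower and 1 (Cck, whose groups overlapped) was higher, against 4.94% and 5.26% of all genes. Scg2, the secretogranin II gene, had 211.9, 214.3 and 209.5 FPKM at ZT1 and 116.9, 145.5 and 153.6 at ZT13. Nts (neurotensin) had 36.6, 38.0 and 37.9 FPKM at ZT1 and 21.3, 25.6 and 13.4 at ZT13, and Crh differed by -0.75 (SE 0.23). Penk, Tac1 and Pdyn, the defining peptides of medium spiny neurons, were named after their values were seen. They differed by -0.23 (SE 0.32), -0.23 (SE 0.39) and -0.55 (SE 0.41). These SEs include the spread of the CJL libraries, 3 of which were low in medium spiny neuron markers. Pdyn had 62.9, 61.2 and 48.4 FPKM at ZT1 and 45.1, 34 and 38.7 at ZT13, with no overlap. The groups of Penk and Tac1 overlapped.

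Of 18 genes for GABA synthesis, transport and receptors, 7 were lower at an unadjusted P under 0.05 and 0 were higher. Of all genes 4.94% were lower and 5.26% higher, and the median of the list was -0.26. Gad1, which makes GABA, had 230.2, 218.3 and 220.3 FPKM at ZT1 and 164.6, 182.7 and 182.1 at ZT13. The count was 3 without NAc ZT13 Ctrl replicate 3, and with the cortical covariate 1 was lower and 1 higher. Over all 14894 genes 531 were lower without that replicate, and 365 lower and 356 higher with the covariate. Without NAc ZT13 Ctrl replicates 2 and 3, which left 1 ZT13 library, the median of the list turned to 0.06. In NAc of CJL mice the median was -0.01. The cortical marker sum was higher at ZT13 in the same libraries, as given above.

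Immediate early genes respond to neuronal activity within minutes. Of 29 tested, 6 were higher at an unadjusted P under 0.05 and 0 were lower, against 5.26% and 4.94% of all genes. Their median was 0.43. Nr4a2, an orphan nuclear receptor gene, had 1.34, 2.01 and 4.03 FPKM at ZT1 and 4.10, 9.31 and 9.82 at ZT13, so that the groups were close to touching. Gadd45b and Dusp1 differed by 0.71 (SE 0.21) and 0.52 (SE 0.17). The count was 2 without NAc ZT1 Ctrl replicate 1 and 12 without NAc ZT13 Ctrl replicate 1. It was 9 without NAc ZT1 Ctrl replicate 3 and 3 without NAc ZT13 Ctrl replicate 3. Over all 14894 genes 471, 1128, 771 and 536 were higher in those fits. With the cortical covariate the count was 0 higher and 1 lower, with a median of 0.14. Without NAc ZT13 Ctrl replicates 2 and 3 it was 0 higher and 1 lower (median 0.18), and without the 3 CJL libraries 9 were higher. In NAc of CJL mice the median was 0.45 and 13 of 29 were higher at an unadjusted P under 0.05, against 2.8% of all genes, and 12 without the 3 CJL libraries.

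Of 30 potassium channel genes, 7 were higher and 1 was lower, against 5.26% and 4.94% of all genes, with a median of 0.13. Kcnj6 (GIRK2) had 1.31, 2.26 and 2.23 FPKM at ZT1 and 4.07, 3.00 and 3.90 at ZT13, and its level in PFC of Ctrl mice was 4.31 to 10.4. The count was 4 with the cortical covariate, 4 without NAc ZT13 Ctrl replicate 1 and 5 without NAc ZT13 Ctrl replicate 3. Over all 14894 genes 356, 1128 and 536 were higher in those fits. Kcnj16, an inward rectifier of glia, was lower, with a difference of -0.42 (SE 0.13). Of 35 glutamate receptor and scaffold genes, 5 were higher and 2 lower, against 5.26% and 4.94% of all genes. With the covariate they were 0 and 2, where 356 and 365 of all 14894 genes were higher and lower. Of 24 cholesterol synthesis genes, 6 were higher and 0 lower (median 0.16), against 5.26% and 4.94% of all genes. With the covariate none of the 24 was either. The count was 0 without NAc ZT1 Ctrl replicate 1, 1 without NAc ZT13 Ctrl replicate 2 and 2 without NAc ZT13 Ctrl replicate 3. Over all 14894 genes 471, 643 and 536 were higher in those fits.

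Ngfr, the p75 neurotrophin receptor, was lower at ZT13, with 10.8, 8.65 and 9.90 FPKM at ZT1 and 3.45, 6.81 and 2.92 at ZT13. This gene is known in the forebrain for cholinergic neurons. Chat, Slc5a7 and Slc18a3, which make and transport acetylcholine, were the 3 of 9 interneuron markers that were lower at an unadjusted P under 0.05. None of the 9 was higher, and of all genes 4.94% were lower and 5.26% higher. Chat had 13.6, 13.2 and 11.9 FPKM at ZT1 and 7.34, 8.29 and 6.67 at ZT13, with no overlap. Slc5a7 and Slc18a3 did not overlap either. The sum of the 9 markers overlapped between the groups (326.8 to 417.7 and 278 to 424.2 FPKM). Sst alone had 178 to 255 FPKM at ZT1 and 171 to 264 at ZT13, so that sum says little about the acetylcholine genes. Of 15 endothelial and pericyte markers 7 were higher and 1 was lower, against 5.26% and 4.94% of all genes. Their sum was 87.3 to 106.2 FPKM at ZT1 and 117.8 to 125.9 at ZT13. Of 8 meningeal markers tested 4 were higher and 0 lower, against 5.26% and 4.94% of all genes.

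Few genes of the large housekeeping lists reached an unadjusted P under 0.05 with all libraries kept. Of all genes 5.26% were higher and 4.94% lower in that fit. Of 76 nuclear oxidative phosphorylation genes 2 were lower and 0 higher (median -0.04), of 83 cytosolic ribosomal protein genes 2 and 0 (median -0.11), of 74 mitochondrial ribosomal protein genes 3 and 1, and of 36 proteasome genes 0 and 0. In PFC of Ctrl mice the same lists had medians of 0.38, 0.27, 0.24 and 0.21, and 57 of 76 oxidative phosphorylation genes were higher at ZT13 at an unadjusted P under 0.05, where 17.4% of all genes were higher and 8.07% lower (25.5% in all). The difference of these medians between the regions was not tested. The NAc medians depended on the ZT13 libraries used. Without NAc ZT13 Ctrl replicates 2 and 3, which left 1 ZT13 library, they were lower. In the order given above they were then -0.25, -0.34, -0.24 and -0.08. The cause was not tested. With all libraries kept, no gene of the antioxidant or the mitochondrially encoded list reached an unadjusted P under 0.05 in NAc. Of the other lists, heat shock chaperones had 1 higher and 3 lower of 19, spliceosome genes 0 and 3 of 33, and glucose and lactate genes 1 and 1 of 29. Calcium and sodium channels had 3 and 1 of 23, aminergic and muscarinic receptors 1 and 1 of 18, and CREB-related genes 1 and 0 of 11. Interferon-response genes had 1 and 0 of 15, and lysosome and autophagy genes 1 and 0 of 21.

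**Figure D4:**
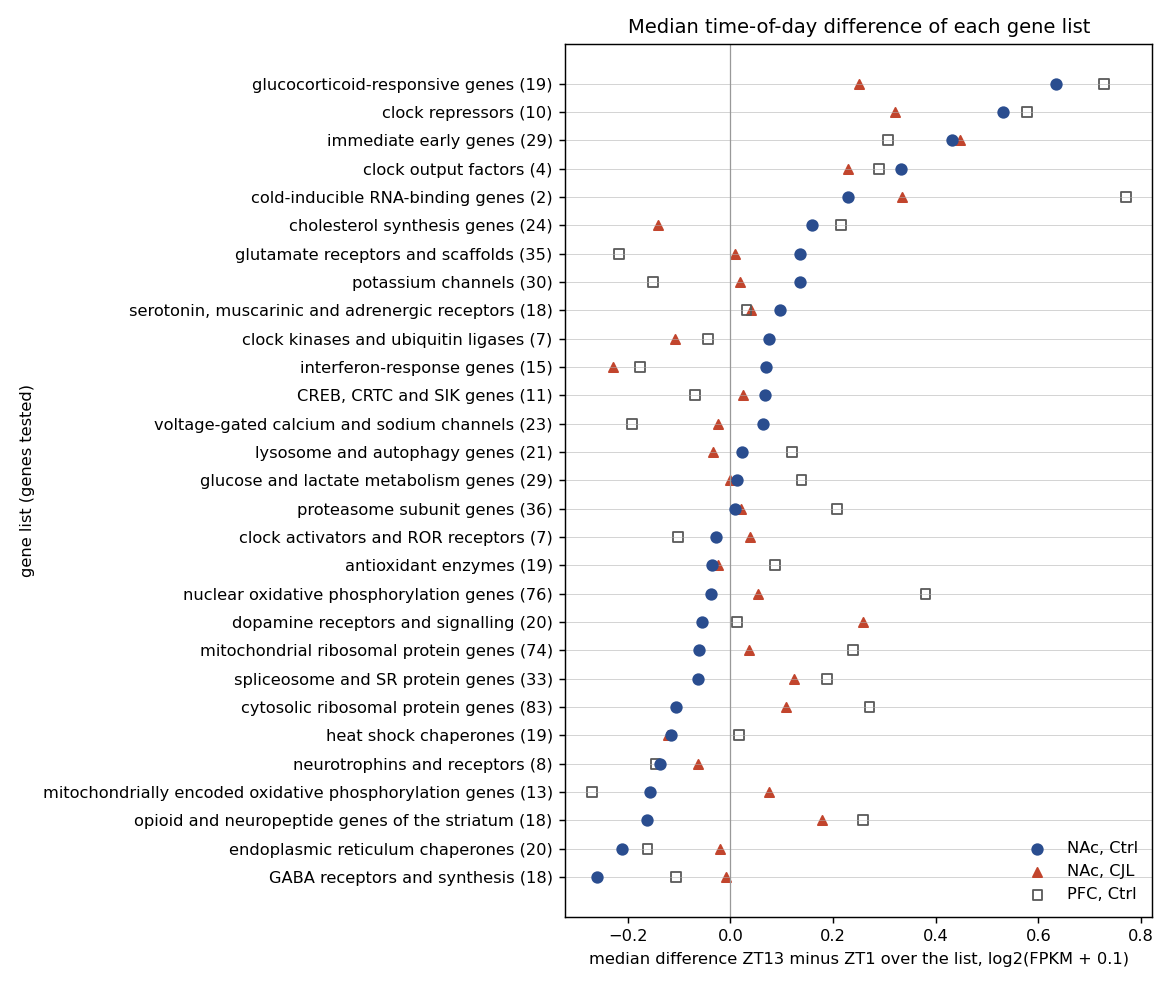
Median difference ZT13 minus ZT1 of 29 gene lists on the log2(FPKM + 0.1) scale in NAc of Ctrl mice (circles), NAc of CJL mice (triangles) and PFC of Ctrl mice (squares), with the number of genes tested. In NAc of Ctrl mice the glucocorticoid-responsive genes are highest (0.63) and the GABA genes lowest (-0.26).

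The genes that leaned one way in NAc also differed by region, measured in the CJL libraries, which did not enter the difference itself. Of the 784 genes higher at ZT13 at an unadjusted P under 0.05, 18.4% were over 2-fold higher in PFC than in NAc, against 2.89% of all genes tested. Of the 736 lower genes 20.4% were over 2-fold higher in NAc, against 7.18% of all. Their median differences PFC minus NAc were 0.321 and -0.516, with -0.141 over all genes. Without the 3 CJL libraries low in medium spiny neuron markers the shares were 17.6% and 19.2%, against 2.91% and 7.17% of all. The part of cortical tissue in these shares was not tested.

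Whether the time-of-day difference depended on the light schedule was tested with the CJL minus Ctrl contrast within NAc. No gene was called (0%; smallest adjusted p 0.575 in limma), and by unadjusted P under 0.05 the contrast was positive in 435 genes (2.92%), negative in 527 (3.54%), 6.46% in all. The contrast was negative for Slc38a2 (-0.58, unadjusted P = 0.00017) and positive for Lyrm5 (1.07, unadjusted P = 0.0001), neither of which passed the adjusted threshold. Leaving out NAc ZT1 Ctrl replicate 2 gave 1 call, the other single libraries none. Without the 3 CJL libraries 1 gene was called, Gm27032 (2.67, adjusted p = 0.00937), named after its value was seen, and by unadjusted P 274 were positive and 319 negative. The contrasts of Slc38a2 and Lyrm5 were then -0.55 and 0.97.

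The contrast of NAc with PFC within Ctrl mice, fitted on all 24 libraries, called 109 genes (0.732%), 60 positive (0.403%) and 49 negative (0.329%), while by unadjusted P under 0.05 it was positive in 6.25% of genes, negative in 11.3% (17.5% in all). In PFC of Ctrl mice alone, 8.12% of genes were called, 5.69% higher and 2.42% lower at ZT13. The summed choroid plexus markers of the PFC libraries of Ctrl mice ran from 3.51 to 625.4 FPKM, and their part in this contrast was not tested beyond leaving out libraries. Ciart differed by 0.65 in NAc and by 2.00 in PFC, where it had 4.84, 4.90 and 5.94 FPKM at ZT1 and 20.8, 24.2 and 18.6 at ZT13. The difference between the regions was -1.34 (adjusted p = 0.021). Zbtb7a had 30.4, 31.4 and 28.7 FPKM in PFC at ZT1 and 29.6, 25.4 and 28.8 at ZT13, so that its ZT13 values in NAc (25.7, 29.7 and 29.6) were at the level of PFC and its ZT1 values (19.1, 13.9 and 15.2) were below. Myl6b and Foxred1 had negative contrasts (-0.79 and -0.72), and Adcy9 and Pcdhga7 positive ones (0.90 and 0.93). Pcdhga7 shares its last exons with the other genes of its cluster, so its value is uncertain.

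The number called in that contrast varied with single libraries. It was 0 without PFC ZT13 Ctrl replicate 2, 604 without PFC ZT13 Ctrl replicate 1 and 286 without NAc ZT13 Ctrl replicate 2. It was 3 without any one of PFC ZT13 Ctrl replicate 3, NAc ZT1 Ctrl replicate 1 and NAc ZT13 Ctrl replicate 3, 6 without PFC ZT1 Ctrl replicate 2 and 11 without PFC ZT1 Ctrl replicate 3. Without PFC ZT1 Ctrl replicate 1 it was 57, and without NAc ZT1 Ctrl replicate 2, NAc ZT1 Ctrl replicate 3 and NAc ZT13 Ctrl replicate 1 it was 23, 37 and 33. Median-of-ratios scaling gave 114 positive and 25 negative calls, quantile normalization 95 and 27, and a GC and exonic length adjustment 69 and 28. By unadjusted P under 0.05 the balance turned, from 931 positive and 1677 negative genes to 1465 and 997 with median-of-ratios scaling, 1357 and 1086 with quantile normalization, and 1284 and 924 with the GC and exonic length adjustment. With only the 12 Ctrl libraries 5 genes were called, and with the cortical covariate none. Ciart was called in 9 of the 12 fits that left out a library (contrast -1.50 to -1.23). With the covariate its contrast was -1.31 (adjusted p = 0.156).

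**Figure D5:**
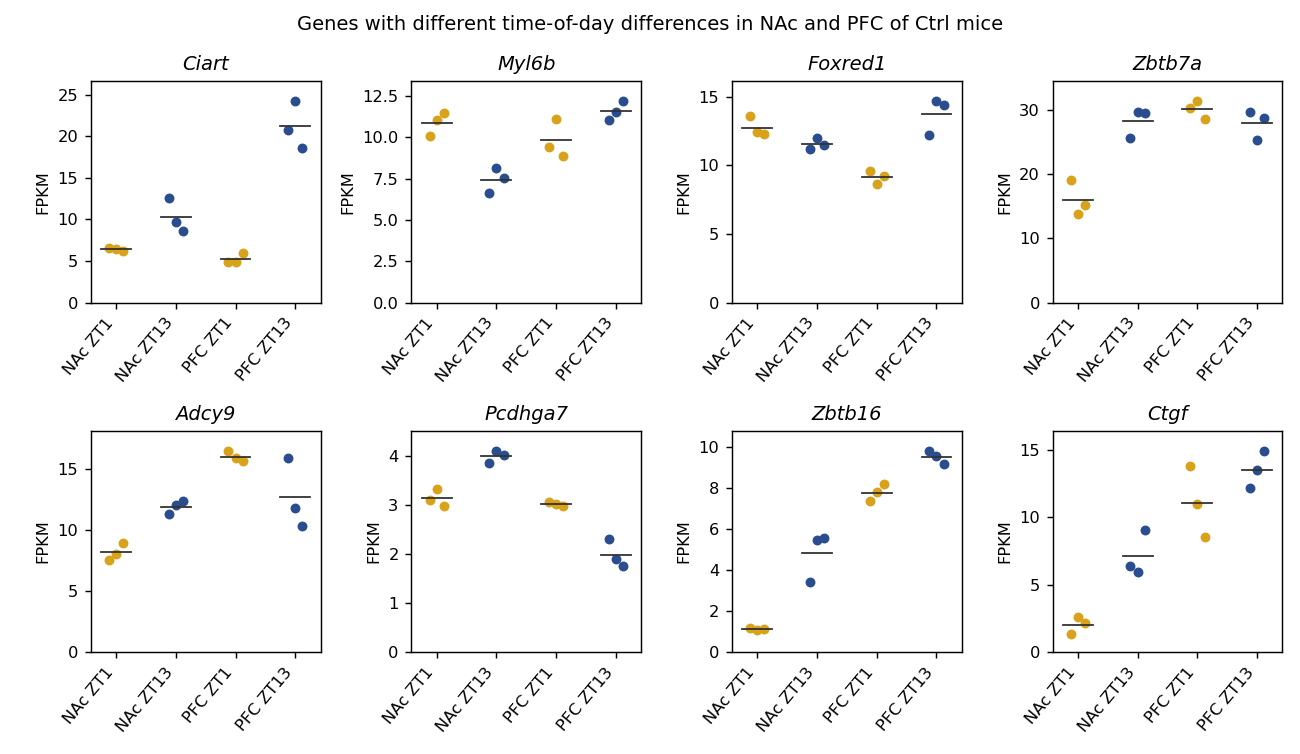
FPKM (axes from 0) of 8 genes named for the contrast of NAc with PFC in Ctrl mice, 1 point per library, 3 per group, with the group mean as a bar (ZT1 yellow, ZT13 blue). Ciart reaches 18.6 to 24.2 in PFC at ZT13 and 8.61 to 12.5 in NAc.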

How the data were processed

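RNA from NAc and PFC was sequenced by the authors from poly-A libraries. The authors aligned the reads with HISAT2 to mm10; the submitters' processing notes also name StringTie, DESeq2 and FastQC 0.11.9. The authors deposited FPKM values of 48526 genes per library, that is, levels relative to length and total fragments, so that read counts and depth per gene are unknown and the count model of the study was not rerun. The 8 tables of the authors' own comparisons (fold change and p-value) were not used. From the FPKM, log2(FPKM + 0.1) was analysed by two-sided linear models (limma 3.58.1 under R 4.3.3, moderated variances with a mean trend) on 12 NAc libraries, or 24 for the contrast of regions, with 1 mean per group and Benjamini-Hochberg adjustment over 14894 genes. The code was tested on simulated data. With 3 mice per group an exact permutation test cannot go below 0.1, so none was used.

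Named genes were to be up to 12 per direction at an adjusted p under 0.05, all genes of the 4 clock lists, the 3 members with the smallest P of each other list, and up to 5 genes per interaction. As no gene passed, 15 per direction were added by P. Other names in the text were chosen after their values were seen, and some genes that the rule names are not reported here. The members and lists were chosen with earlier results of these data known. Which NAc and PFC libraries share a mouse is not given in the labels, so no mouse term was fitted. Alternatives were another pseudocount, no filter, 2 scalings, a GC and length correction, other sets of libraries, a replicate block and, chosen after seeing the data, the cortical covariate, leaving out each CJL library, and leaving out together the libraries that stood apart in tissue markers.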

Additional observations from a re-analysis of the deposited data

Results flagged for a closer look

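In 13 genes named by the rules the time-of-day difference of Ctrl mice differed between NAc and PFC in the test of that difference itself (limma, adjusted p under 0.05; NAc minus PFC, log2 scale). The contrast was negative for Ciart (-1.34), Myl6b (-0.79), Foxred1 (-0.72) and Gas5 (-0.54). It was positive for Zbtb7a (0.94), Adcy9 (0.90), Pcdhga7 (0.93), Zbtb16 (1.68) and Ctgf (1.47). It was positive also for Cacna2d1 (2.21), Kcnj6 (1.70), Chrm3 (0.95) and Pde4d (0.85). Cacna2d1 had 7.07 to 20.4 FPKM in PFC at ZT13 and 29.8 to 38.7 at ZT1, while in NAc it had 18.1 to 23.0 at ZT13 and 10.7 to 13.95 at ZT1. None of the 13 was called with the cortical covariate, where their adjusted p ran from 0.121 to 0.218. All kept their direction in that fit, with contrasts from -1.31 (Ciart) to 2.46 (Cacna2d1). Zbtb7a and Myl6b were at 1.04 and -0.94, and Kcnj6 and Chrm3 at 1.12 and 0.69. The covariate was the same for all PFC libraries and did not overlap between the NAc ZT1 and ZT13 libraries of Ctrl mice. With only the 12 Ctrl libraries the adjusted p of the 13 ran from 0.05 (Zbtb16) to 0.141.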

How the results depend on the processing

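The count of called genes for ZT13 against ZT1 in NAc of Ctrl mice was 0 in limma, and 1520 at an unadjusted P under 0.05. It was 11 with a pseudocount of 1, 1 with no filter on FPKM, 10 with quantile normalization and 170 with all 24 libraries in the fit, and from 0 to 9 when 1 library was left out. Leaving out NAc ZT13 Ctrl replicates 2 and 3 together, which held hypothalamic peptides, gave 30. It stayed at 0 with median-of-ratios scaling, GC and length correction, eBayes without trend, the cortical covariate, the 6 libraries alone, and without the libraries high in other tissue. The PFC groups that enter the 24-library fit had median SDs of 0.115 to 0.139. The CJL minus Ctrl contrast gave 0 in every alternative run except leaving out 1 library, where it gave 0 to 1, and leaving out 3 CJL libraries low in medium spiny neuron markers, where it gave 1. The NAc minus PFC contrast gave 109, against 13 with no filter, 58 with the replicate block, 5 with only the 12 Ctrl libraries, 0 with the cortical covariate and 0 to 604 leaving out 1 library. Same-numbered ZT1 and ZT13 libraries were not paired by the data (r of their deviations 0.0734, -0.205 and 0.136), and the replicate block gave 0 calls for ZT13 against ZT1 and 0 for the CJL minus Ctrl contrast.

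Among the named genes 104 kept their direction in all alternatives run. For the other 13, GC and length correction gave mt-Co2 0.0591, mt-Nd2 0.0919, Btrc 3e-04 and Arntl2 0.0164. Leaving out the libraries high in other tissue gave Arntl2 0.121, Nfil3 -0.0317 and Fbxl21 -0.0074. The cortical covariate gave Nfil3 -0.0928, Fbxl21 -0.0085, Clock -0.0485, Hspa1b -0.0847, Bdnf -0.59, Gng7 0.30 and Npas2 0.33. Leaving out 1 library gave Arntl2 -0.17 to 0.12, Nfil3 -0.0317 to 0.127, Fbxl21 -0.0277 to 0.0794, Rorb -0.15 to 0.0036, Hlf -0.10 to 0.15 and Clock -0.16 to 0.28. The cause was not tested. FPKM values come without their counting error, so how far the depth per gene limits low genes such as Plin4 is unknown.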
